A study of Homo sapiens with 6 samples.

Results

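The collagen chain genes are the genes whose symbol reads COL, a number, A and a number, such as COL1A1. Of the 46427 genes in the deposited count table, 44 matched this pattern. The samples were Hs578T cells, an established triple-negative breast cancer line grown in DMEM with 10% fetal bovine serum. The 3 control samples (shCTRL) carried the retroviral vector pSUPER-CTRL, and the 3 knockdown samples (shCCN3) carried pSUPER with shRNA #2 against CCN3, a secreted protein of the CCN family. Both lines were selected with puromycin, a single CCN3 shRNA was sequenced, and the methods do not say how many clones each line held. The design text calls the samples of a group independent biological replicates, and the p-values below measure the spread between these 3 samples.

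Collagens are secreted or membrane-bound proteins in which chains wind around each other into helical trimers, and each chain is the product of its own gene. Fibrillar collagens (types I, II, III, V, XI, XXIV and XXVII) build the banded fibrils of connective tissue, and network collagens (types IV, VIII and X) build sheets such as the basement membrane. Type VI forms beaded filaments, type VII forms the fibrils that anchor epithelium to the stroma, FACIT collagens sit on the surface of fibrils, transmembrane collagens span the plasma membrane, and multiplexins belong to the basement membrane zone. In breast tumors fibroblasts are the main source of fibrillar collagen, and mesenchymal-type cancer cells also transcribe collagen genes.

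Levels are given as CPM, the count of a gene scaled to the size of its library with TMM factors. The libraries held 56159110 to 68393177 counts, so that 3 counts corresponded to between 0.0435 and 0.054 CPM, which covers counting error only. CCN3 itself was at 103, 102 and 98.1 CPM in the shCTRL libraries and at 47.4, 47.2 and 46.5 CPM in the shCCN3 libraries. Its log2 fold change was -1.10 (SE 0.055, adjusted p = 1.341e-06, edgeR quasi-likelihood test with Benjamini-Hochberg adjustment). The mesenchymal marker VIM had a mean of 7778 CPM in shCTRL cells, while the epithelial markers EPCAM, CDH1, KRT19 and ESRP1 had means under 0.2 CPM in both groups. Of the 5 mesenchymal markers, CDH2 was called higher and CD44 lower in shCCN3 cells (log2 fold changes 0.87 and -0.25). VIM, ZEB1 and AXL were not called. The keratin genes KRT8 and KRT18 were expressed, with means of 20.0 and 162.7 CPM in shCTRL cells, and KRT8 was called lower and KRT18 higher in shCCN3 cells (log2 fold changes -0.52 and 0.51). Of the receptors that define the triple-negative class, ESR1 had a mean under 0.1 CPM in both groups, PGR 2.86 CPM and ERBB2 77.9 CPM in shCTRL cells. Of the 3 endothelial markers CDH5 had no count in any library, and PECAM1 and VWF had shCTRL means of 3.57 and 0.0864 CPM. Of the 3 leukocyte markers CD3E had no count, and CD14 and PTPRC had shCTRL means of 0.52 and 0.0656 CPM. All 6 fibroblast markers were detected, but FAP only at means of 0.38 CPM in shCTRL and 0.19 CPM in shCCN3 cells. FAP had no count in shCCN3 replicate 2. The summed level of the 6 markers was between 1219 and 1282 CPM in the shCTRL libraries and between 930.1 and 1009 CPM in the shCCN3 libraries. THY1 and PDGFRA held most of it in shCTRL cells, with means of 868.5 and 290.0 CPM. Of the 6 markers, 1 was called lower (PDGFRA, log2 fold change -2.57) and 1 higher (LUM, log2 fold change 0.61). The part of the fibroblast markers in the collagen results was not tested.

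Start-site sequences were available for 32 of the 44 collagen genes, in 44 windows of 250 bases before to 50 bases after a RefSeq start site on GRCh38.p14. The genes not matched were COL1A1, COL1A2, COL2A1, COL3A1, COL5A2, COL6A1, COL6A5, COL8A1, COL9A3, COL14A1, COL20A1 and COL22A1. Of the genes with a window, the ones shown here are the fibrillar gene that had no count in control cells (COL11A1), the neighbouring basement membrane genes that rose together (COL4A1 and COL4A2, whose start sites face away from each other), the multiplexin gene that rose (COL18A1, the first of its 2 windows) and the transmembrane gene that fell (COL13A1). The bases lie at chr1:103108523-103108772 on the minus strand for COL11A1, at chr13:110307158-110307283 on the plus strand for the interval between the COL4A1 and COL4A2 starts, at chr21:45404915-45405164 on the plus strand for COL18A1, and at chr10:69801656-69801905 on the plus strand for COL13A1. Each line reads 5′ to 3′ and ends at the base before the start site, apart from the COL4A1 and COL4A2 line, which is the whole interval. Capitals mark the letters CCAAT, the GC box GGGCGG and the letters TATAAA, each also where it reads on the opposite strand.
COL11A1: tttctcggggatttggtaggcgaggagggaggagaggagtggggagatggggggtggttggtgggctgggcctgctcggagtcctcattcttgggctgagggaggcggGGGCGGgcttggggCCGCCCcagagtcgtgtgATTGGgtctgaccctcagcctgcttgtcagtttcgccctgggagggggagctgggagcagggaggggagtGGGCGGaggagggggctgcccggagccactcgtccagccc
COL4A1 and COL4A2: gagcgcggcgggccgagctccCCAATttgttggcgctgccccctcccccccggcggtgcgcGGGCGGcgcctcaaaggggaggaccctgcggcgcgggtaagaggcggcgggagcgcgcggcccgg
COL18A1: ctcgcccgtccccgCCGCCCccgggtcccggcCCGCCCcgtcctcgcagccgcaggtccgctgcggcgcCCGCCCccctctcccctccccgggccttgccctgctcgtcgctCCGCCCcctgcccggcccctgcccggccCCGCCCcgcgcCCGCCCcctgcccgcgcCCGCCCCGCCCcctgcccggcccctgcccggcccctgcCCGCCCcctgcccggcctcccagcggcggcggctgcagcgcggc
COL13A1: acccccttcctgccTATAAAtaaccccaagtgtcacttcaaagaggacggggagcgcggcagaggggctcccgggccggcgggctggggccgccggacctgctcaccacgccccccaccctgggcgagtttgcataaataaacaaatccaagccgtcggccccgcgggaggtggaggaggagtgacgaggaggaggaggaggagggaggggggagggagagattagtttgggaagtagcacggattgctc

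The stretch before COL11A1 held the GC box 3 times on either strand and ATTGG, the reverse complement of CCAAT, 1 time. The 126 bases between COL4A1 and COL4A2 held CCAAT 1 time and GGGCGG 1 time. COL18A1 had CCGCCC, the reverse complement of the GC box, 9 times, of which a pair overlapped by 1 base. COL13A1 had TATAAA 1 time, beginning 236 bases before the start site, and none of the other letters searched. Whether that stretch works as a promoter element was not tested. Over all windows of 300 bases, the GC box was found on either strand in 24 of 44 collagen windows (54.5%) and in 45% of the 35116 windows of the whole table. CCAAT was found in 31.8% of collagen windows against 34.6% of all windows, and TATAAA in 18.2% against 11.5%, both counted on either strand. These shares are descriptions of letters in a window, and several genes contributed more than 1 window.

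Collagen mRNA made up about 1 percent of all counts in these cells, and type VI dominated it. The summed level of the 44 genes was 11240, 11730 and 11140 CPM in the shCTRL libraries and 10860, 9292 and 11260 CPM in the shCCN3 libraries. The groups overlapped, and the log2 ratio of the means was -0.12. As a share of all counts this was 1.13% ± 0.036 (SD, n = 3) in shCTRL cells and 1.05% ± 0.12 (SD, n = 3) in shCCN3 cells. Without COL6A3, the most abundant member, the log2 ratio was 0.07 and the groups overlapped again. In bulk RNA, fewer cells that express a gene and less RNA per cell cannot be told apart.

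Within that total the share of the classes differed between the groups. COL6A1, COL6A2 and COL6A3 together held 84.2%, 84.2% and 83.7% of the summed collagen CPM in the shCTRL libraries and 78.2%, 77.8% and 77.4% in the shCCN3 libraries. Fibrillar chains held 5.40% ± 0.029 (SD, n = 3) in shCTRL cells and 7.77% ± 0.12 (SD, n = 3) in shCCN3 cells, and network chains 4.36% ± 0.11 and 6.17% ± 0.14 (SD, n = 3 each). The share of the transmembrane chains was 1.22% ± 0.026 in shCTRL cells and 0.584% ± 0.050 in shCCN3 cells (SD, n = 3 each). In each of the 7 classes with a gene tested, the shares of the 2 groups did not overlap. In CPM, the fibrillar chains summed to means of 613.6 in shCTRL and 813.9 in shCCN3 cells, and the network chains to 495.5 and 647.0. The beaded filament chains summed to 9556 and 8146 CPM, and the transmembrane chains to 138.3 and 60.75 CPM. The groups did not overlap in any of these class sums. The shares of a library add up to a fixed total, so a lower type VI share by itself raises the others. The 7 classes are therefore not separate observations. These shares sum over members whose choice was made with earlier results known, so no test is attached to them.

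**Figure D1:**
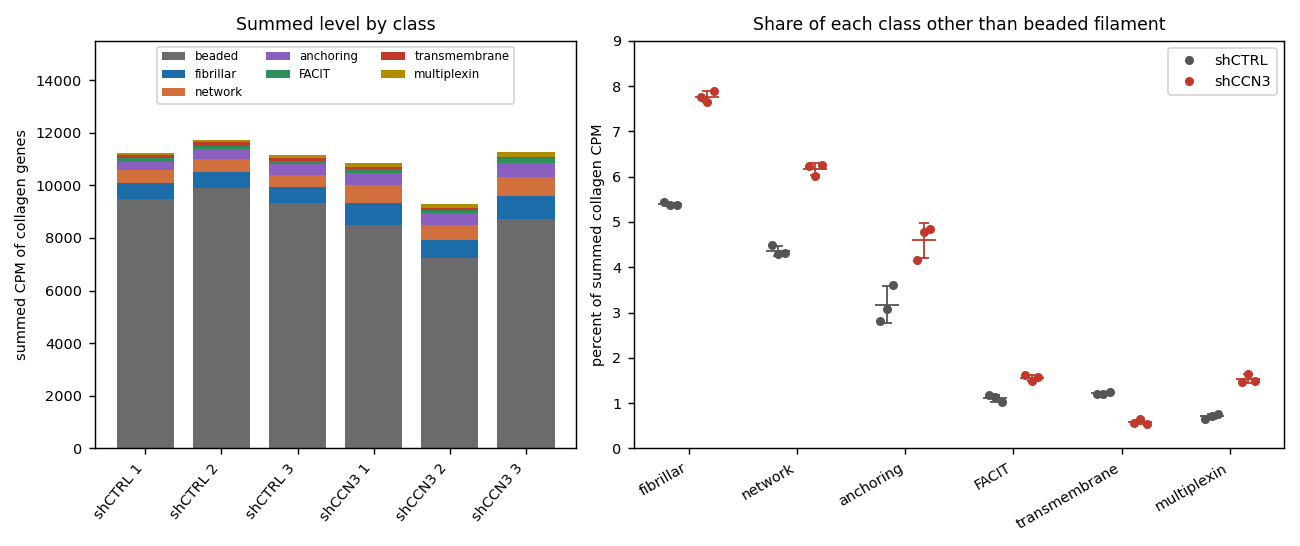
The left panel stacks the summed CPM of the collagen genes by class in each library, and the right panel gives the percent of that sum held by each class other than beaded filament, with points for libraries, horizontal bars for means and error bars for SD (n = 3). The bar heights of the groups overlap, while the fibrillar share lies between 5.38% and 5.43% in the shCTRL libraries and between 7.65% and 7.89% in the shCCN3 libraries.

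Of the 44 genes, 28 passed the filter on low counts. COL2A1, COL4A3, COL6A5, COL9A1, COL10A1, COL20A1, COL22A1, COL23A1, COL25A1 and COL26A1 had no count in any of the 6 libraries. These 10 include the cartilage genes COL2A1, COL9A1 and COL10A1. COL4A4, COL6A6, COL8A2, COL9A3, COL21A1 and COL28A1 had at most 12 counts in a library and were not tested. The transcripts of the members tested were between 2862 and 11723 bases long, with a median of 6474 bases against 3381 bases over the genes tested that had a length.

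In shCCN3 cells 15 of the 28 genes tested were called at an adjusted p under 0.05 (53.6%), whereas 33.4% of all 17419 genes tested were called. The 12 called higher were COL1A1, COL1A2, COL3A1, COL4A1, COL4A2, COL5A2, COL7A1, COL11A1, COL12A1, COL18A1, COL19A1 and COL27A1, which is 42.9% of the members tested against 16.2% of all genes. The 3 called lower were COL8A1, COL13A1 and COL16A1, or 10.7% against 17.3% of all genes. With a change of at least 2-fold added to the call, 7 members were higher (25.0%, against 4.17% of all genes) and 2 were lower (7.14%, against 3.93% of all genes). COL4A1, at 2.01-fold, lay just inside this limit and COL18A1, at 1.99-fold, just outside it. The groups did not overlap for 17 members (60.7%), whereas 46.3% of all genes did not overlap. COL1A2, COL11A1 and COL19A1 were among these 17 and passed the filter through the group in which they were high, so their separation is no independent support.

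COL1A2, COL11A1, COL19A1 and COL24A1 passed the filter through their shCCN3 libraries, since fewer than 3 shCTRL libraries reached its limit. Without these 4 genes, 9 of 24 members were called higher and 3 lower, and 4 of 24 (16.7%) were higher by at least 2-fold. The median log2 fold change was 0.20 over the 28 genes, 0.16 over the 24 without these 4, and 0.01 over all genes tested. By class, 6 of the 10 fibrillar genes tested were called higher and none lower (4 of 7 higher without those that passed through shCCN3), 2 of the 5 network genes higher and 1 lower, and 2 of the 5 FACIT genes higher and 1 lower (1 of 4 higher without COL19A1). None of the 3 beaded filament genes was called by edgeR (1, COL6A3, had an unadjusted p under 0.05 and was called by DESeq2), 1 of the 2 transmembrane genes was lower, 1 of the 2 multiplexin genes was higher, and the anchoring fibril gene COL7A1 was higher.

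**Figure D2:**
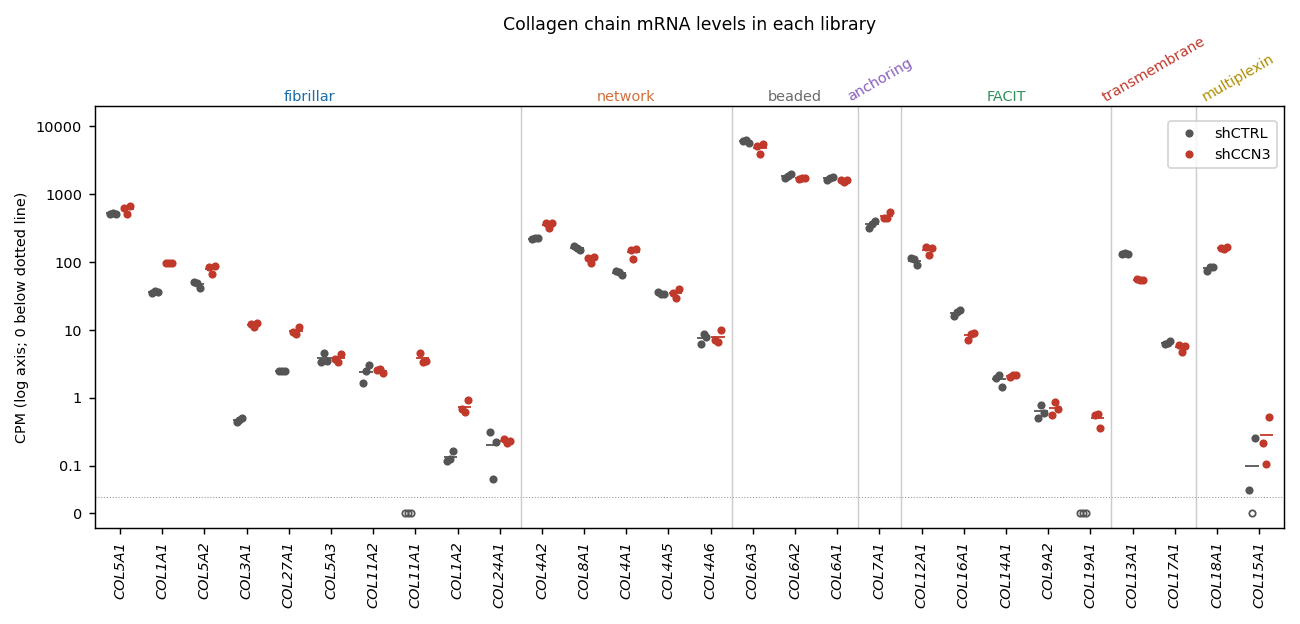
Each point is the CPM of a collagen gene in 1 library on a log axis, with shCTRL in gray, shCCN3 in red, horizontal bars for group means and open points below the dotted line for libraries with no count. The 28 genes tested are grouped by class and ordered by mean level; COL6A3 is the highest, and COL11A1 and COL19A1 have points at 0 in all 3 shCTRL libraries.

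Among the fibrillar genes, COL1A1, COL1A2, COL3A1, COL11A1 and COL27A1 rose by at least 2-fold in shCCN3 cells. COL3A1 encodes the only chain of type III collagen, which forms mixed fibrils with type I in soft tissue. It was at 0.437, 0.478 and 0.507 CPM in the shCTRL libraries and at 12.2, 10.9 and 12.8 CPM in the shCCN3 libraries. Every shCCN3 library was above every shCTRL library. The log2 fold change was 4.66 (SE 0.13, adjusted p = 6.475e-08, edgeR quasi-likelihood test with Benjamini-Hochberg adjustment), a 25.2-fold difference. With each library left out in turn it ran from 4.599 to 4.72.

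COL1A1 encodes the major chain of type I collagen, the most abundant collagen of the body, and lies at chr17:50184101-50201631. Its levels were 35.2, 37.1 and 36.1 CPM in the shCTRL libraries and 97.7, 96.3 and 97.9 CPM in the shCCN3 libraries. The values within a group lay close together and the groups were far apart, with a log2 fold change of 1.43 (SE 0.056, adjusted p = 3.338e-07 from edgeR). COL1A2, which encodes the other chain of type I, was much lower, with 8, 8 and 11 counts in the shCTRL libraries and 48, 34 and 60 counts in the shCCN3 libraries. The group means were 0.136 ± 0.025 and 0.749 ± 0.17 CPM (SD over 3 libraries), and the gene rose by 2.45 on the log2 scale (SE 0.33, adjusted p = 0.000478 from edgeR). On its chromosome 7 the median log2 fold change of the 821 genes tested was -0.43, and COL1A2 was 2.88 above that median.

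COL11A1 encodes a chain of type XI collagen, a minor fibrillar collagen known from cartilage and from the stroma of carcinomas. It had no count in any shCTRL library, and 320, 188 and 225 counts in the shCCN3 libraries, or 4.64, 3.38 and 3.52 CPM. Against 3 counts per shCTRL library it was at least 84.8-fold higher (adjusted p = 4.861e-06 from edgeR). Its partner COL11A2 did not pass the threshold, with group means of 2.44 ± 0.71 CPM for shCTRL and 2.52 ± 0.14 CPM for shCCN3 (SD, n = 3; adjusted p = 0.893 from edgeR). The COL11A1 gene lies at chr1:102876473-103108522 of GRCh38, and the window shown above ends at its start.

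COL27A1 encodes the single chain of type XXVII collagen, a fibrillar collagen of developing cartilage. It was at 2.53, 2.48 and 2.52 CPM in the shCTRL libraries and at 9.50, 8.60 and 11.3 CPM in the shCCN3 libraries. No shCCN3 library came near the shCTRL libraries, and the log2 fold change was 1.96 (SE 0.12, adjusted p = 4.935e-06 from edgeR).

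Type V collagen nucleates the fibrils of types I and III, and of its chains COL5A2 rose while COL5A1 gave no call. COL5A1, the most abundant fibrillar gene, was at 516, 535 and 513 CPM in the shCTRL libraries and at 628, 518 and 667 CPM in the shCCN3 libraries. Only shCCN3 replicate 2 fell within the range of the shCTRL libraries. The log2 fold change was 0.21 (SE 0.088), with an adjusted p of 0.094 from edgeR, and without shCCN3 replicate 2 it was 0.31 with an adjusted p of 0.000572. With any other single library left out, COL5A1 was not called (adjusted p from 0.163 to 0.285, edgeR). COL5A2 was at 50.7, 48.6 and 41.1 CPM in the shCTRL libraries and at 83.3, 66.3 and 88.5 CPM in the shCCN3 libraries, which did not overlap. Its log2 fold change was 0.76 (SE 0.12, adjusted p = 0.000947 from edgeR). COL5A3 and COL24A1 overlapped between the groups, with adjusted p of 0.972 and 0.82 from edgeR.

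COL3A1 and COL5A2 are neighbours on chromosome 2 of GRCh38, at 188974373 to 189012746 and 189031898 to 189441111, with 19.2 kb between them. Both rose, by different amounts. The ratio of COL3A1 to COL5A2 in CPM per kilobase of transcript was 0.011, 0.0125 and 0.0157 in the shCTRL libraries and 0.188, 0.210 and 0.184 in the shCCN3 libraries, a difference of 3.90 in log2 ratio.

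**Figure D3:**
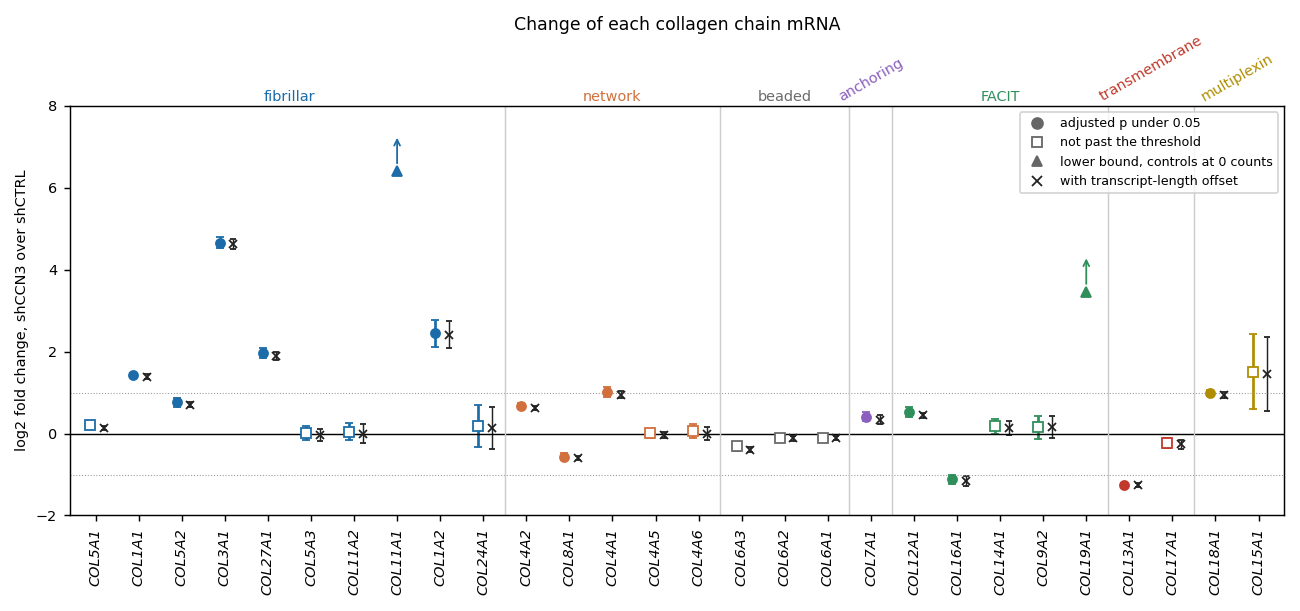
Filled circles are log2 fold changes of shCCN3 over shCTRL with an adjusted p under 0.05, open squares those that missed it, and crosses the same genes in the fit with a transcript-length offset; error bars are SE, and triangles with arrows are lower bounds for COL11A1 and COL19A1. The 6 fibrillar genes called all lie above 0, and COL13A1, COL16A1 and COL8A1 are the called genes below 0.

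Of the network genes, the widely expressed basement membrane chains COL4A1 and COL4A2 rose and COL8A1 fell. COL4A1 was at 72.7, 71.4 and 64.1 CPM in the shCTRL libraries and at 150.3, 110.5 and 157.5 CPM in the shCCN3 libraries. Its partner in the same trimer, COL4A2, was at 216, 224 and 223 CPM and at 370, 316 and 378 CPM. Both genes were lowest, among the shCCN3 libraries, in replicate 2, and that library was still above all shCTRL libraries. The log2 fold changes were 1.01 (SE 0.12, adjusted p = 0.000254) for COL4A1 and 0.68 (SE 0.074, adjusted p = 0.000126) for COL4A2, both from edgeR.

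COL4A1 lies at chr13:110148963-110307157 and COL4A2 at chr13:110307284-110513209, either side of the interval printed above. The other type IV genes gave no call. COL4A5 and COL4A6, an X-linked pair whose nearest start sites are 380 bases apart, had shCTRL means of 34.9 ± 1.3 and 7.59 ± 1.3 CPM and shCCN3 means of 35.01 ± 5.8 and 7.90 ± 1.8 CPM (SD, n = 3). Their adjusted p values were 0.97 and 0.832 from edgeR. COL4A3 had no count, and COL4A4 had 0, 7 and 3 counts in the shCCN3 libraries and none in the shCTRL libraries. Both genes of the chromosome 13 pair were thus called and neither gene of the X-linked pair. COL4A3 and COL4A4, also neighbours, were not tested and could not be called.

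COL8A1 encodes a chain of the short-chain network collagen of vessel walls and the cornea. It was at 172, 164 and 152 CPM in the shCTRL libraries and at 115, 95.8 and 119 CPM in the shCCN3 libraries. The groups did not overlap, and the log2 fold change was -0.57 (SE 0.089, adjusted p = 0.00108 from edgeR). Its partner COL8A2 had at most 6 counts in a library.

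The type VI genes were the most abundant collagen genes, also per kilobase of transcript. In shCTRL cells COL6A3 had 558, COL6A2 536 and COL6A1 402 CPM per kilobase, against 61.5 for COL5A1, the next in order. COL6A3, which encodes the largest of these type VI chains and lies at chr2:237324018-237414164, was at 6137, 6286 and 5568 CPM in the shCTRL libraries and at 5165, 3963 and 5386 CPM in the shCCN3 libraries. The groups did not overlap, but replicates were spread widely and the adjusted p was 0.0502 (log2 fold change -0.31, SE 0.11, edgeR). COL6A1 was at 1621, 1726 and 1768 CPM and at 1638, 1514 and 1618 CPM in the shCTRL and shCCN3 libraries, and COL6A2 at 1706, 1870 and 1985 CPM and at 1689, 1749 and 1715 CPM. Both overlapped between the groups, with log2 fold changes of -0.10 (SE 0.058, adjusted p = 0.218) and -0.11 (SE 0.063, adjusted p = 0.222) from edgeR. Both lie on chromosome 21, where the median log2 fold change of the 224 genes tested was 0.23, and relative to it they were at -0.33 and -0.34.

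COL7A1, the anchoring fibril chain, was at 317, 361 and 403 CPM in the shCTRL libraries and at 451, 444 and 546 CPM in the shCCN3 libraries. Its log2 fold change was 0.42 (SE 0.10, adjusted p = 0.0138 from edgeR). Without shCTRL replicate 1, the lowest library, the adjusted p was 0.0518 and the log2 fold change 0.33.

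The FACIT genes moved in both directions. COL12A1, whose product binds type I fibrils in tissue under load, was at 113, 110 and 91.2 CPM in the shCTRL libraries and at 164, 126 and 164 CPM in the shCCN3 libraries. Its log2 fold change was 0.53 (SE 0.12, adjusted p = 0.00768 from edgeR), and 0.19 relative to the median of chromosome 6, which was 0.34 over 891 genes. COL16A1, a FACIT chain that associates with fibrils in several tissues, went the other way. It was at 16.3, 18.2 and 19.8 CPM in the shCTRL libraries and at 7.22, 8.78 and 9.08 CPM in the shCCN3 libraries, with a log2 fold change of -1.12 (SE 0.11, adjusted p = 7.907e-05 from edgeR).

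COL19A1, a rare FACIT chain, had no count in the shCTRL libraries and 39, 32 and 23 counts in the shCCN3 libraries. Against 3 counts per shCTRL library that was at least 11.03-fold higher (adjusted p = 0.000365 from edgeR), at a level of 0.5004 ± 0.12 CPM (SD, n = 3). COL9A1, which lies 2.59 kb from COL19A1 on chromosome 6, had no count in any library. COL9A2 and COL14A1 overlapped between the groups, with log2 fold changes of 0.15 and 0.17 and adjusted p of 0.719 and 0.502 from edgeR.

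COL13A1, a transmembrane collagen found at cell contacts and at the neuromuscular junction, had the largest fall of the members tested and lies at chr10:69801906-69959144. It was at 129.9, 133.8 and 131.9 CPM in the shCTRL libraries and at 55.5, 54.8 and 55.4 CPM in the shCCN3 libraries. The libraries of each group differed by little, and the log2 fold change was -1.26 (SE 0.054, adjusted p = 5.091e-07 from edgeR). COL17A1, the hemidesmosome collagen, was at 6.19, 6.37 and 6.94 CPM and at 6.04, 4.72 and 5.91 CPM in the shCTRL and shCCN3 libraries. These values did not overlap, yet the adjusted p was 0.194 (log2 fold change -0.22, SE 0.12, edgeR).

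COL18A1 encodes the multiplexin from which the fragment endostatin is released. It was at 72.9, 84.4 and 84.5 CPM in the shCTRL libraries and at 159.7, 153.5 and 167.7 CPM in the shCCN3 libraries. The log2 fold change was 0.99 (SE 0.074, adjusted p = 1.255e-05 from edgeR), or 0.76 relative to the median of its chromosome 21. COL15A1 had at most 34 counts in a library and did not pass (adjusted p = 0.249 from edgeR).

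In order of level per kilobase, the changes moved a few genes past others. COL13A1 had rank 5 among the members in shCTRL cells with 41.4 CPM per kilobase, and rank 10 in shCCN3 cells with 17.3 CPM per kilobase. COL1A1 went from 5.37 to 14.5 CPM per kilobase, and COL3A1 from 0.0854 to 2.16. Per kilobase COL3A1 was below COL1A1, COL5A1 and COL5A2 in both groups.

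Chains that share a trimer, or that are encoded side by side, were compared within each library by the ratio of their levels in CPM per kilobase of transcript. Of 11 pairs listed, 7 had both genes tested and a count of both in every library. COL11A1 with COL5A1 was left out although both were tested, since COL11A1 had no count in the shCTRL libraries. Per kilobase, COL1A1 was 243, 234 and 177 times COL1A2 in the shCTRL libraries and 113, 127 and 84.0 times it in the shCCN3 libraries. COL5A1 was 8.50, 9.20 and 10.4 times COL5A2 in the shCTRL libraries and 6.30, 6.54 and 6.29 times it in the shCCN3 libraries on the same scale. COL4A1 per kilobase was 0.330, 0.312 and 0.282 of COL4A2 in the shCTRL libraries and 0.399, 0.343 and 0.409 of it in the shCCN3 libraries. In these 3 pairs, and in COL3A1 with COL5A2, the groups did not overlap, and the two-sided exact permutation p was 0.1, which is the lowest value possible with 3 libraries a group, and 0.175 after Benjamini-Hochberg adjustment over the 7 pairs. The ratio of COL6A1 to COL6A2 differed by 0.01 in log2 between the groups (exact permutation p = 1), and that of COL4A5 to COL4A6 by -0.06 (exact permutation p = 0.9). For COL6A1 and COL6A3 the difference was 0.22 (exact permutation p = 0.3).

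Collagen transcripts are long, and the libraries of a group differed by transcript length. Over the 2256 genes with a transcript above 6000 bases, the median deviation from the group mean in log2(CPM + 0.5) was -0.137 in shCCN3 replicate 2, and 0.0454 and 0.0923 in shCCN3 replicates 1 and 3. In the shCTRL group replicate 3 deviated by -0.0694. The log2 fold change between the groups also differed by length over all genes with a length and a mean of at least 1 CPM. Its median was -0.09 up to 1000 bases, 0.06 from 6000 to 8000 bases and 0.09 above 8000 bases. Of the 23 collagen genes with a mean of at least 1 CPM, 19 were below the group mean in shCCN3 replicate 2, with a median of -0.16, and 3 were below it in shCCN3 replicate 3. In a fit with a length offset for each library, added after seeing the data, all 15 members called kept their direction and an adjusted p under 0.05. COL6A3 was then called lower (log2 fold change -0.39, SE 0.052, adjusted p = 0.000202) and COL5A1 higher (0.14, SE 0.050, adjusted p = 0.0464), both from edgeR.

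Genes that modify, cut, bind or degrade collagen were read beside the chains, and each gene for which a change is given here had an adjusted p under 0.05 from edgeR. Of 23 genes for hydroxylation, glycosylation, folding and export, 5 were called higher (21.7%, against 16.2% of all genes) and 6 lower (26.1%, against 17.3%), with a median log2 fold change of -0.04. PLOD2, the lysyl hydroxylase of the collagen telopeptides, rose from 188 ± 17 to 355 ± 39 CPM (SD, n = 3 each, log2 fold change 0.92), and the prolyl 3-hydroxylase gene P3H2 rose by 0.66 on the log2 scale. P3H1 and P3H3, relatives of P3H2, were called lower, with log2 fold changes of -0.29 and -0.35. MIA2, an export factor, rose by 0.27. PLOD3, a lysyl hydroxylase that also glycosylates, changed by -0.70, the peptidyl-prolyl isomerase gene FKBP14 by -0.65 and the coat protein gene SEC24D by -0.38. The collagen chaperone SERPINH1 was at 198 and 205 CPM as group means (adjusted p = 0.622, edgeR).

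Of 22 genes for procollagen cleavage, crosslinking and fibril assembly, 17 were tested, with 4 called higher and 4 lower (23.5% each, against 16.2% and 17.3% of all genes). ADAMTS2, which removes the amino-terminal propeptide of procollagens, was at 27.7, 28.9 and 28.5 CPM in the shCTRL libraries and at 57.8, 47.7 and 57.7 CPM in the shCCN3 libraries (log2 fold change 0.94). ADAMTS14, a protease of the same kind, was at 96.8, 103 and 103 CPM and at 13.87, 14.04 and 16.03 CPM, a log2 fold change of -2.79 (SE 0.077, adjusted p = 5.295e-08 from edgeR). The relatives thus changed in opposite directions. PCOLCE, which enhances removal of the carboxy-terminal propeptide, was at 345, 361 and 398 CPM and at 84.5, 96.3 and 78.8 CPM (log2 fold change -2.09, adjusted p = 5.091e-07 from edgeR). The fibril-binding proteoglycan gene LUM rose by 0.61 and the crosslinking enzyme gene LOX by 0.31 on the log2 scale, and TNXB changed by -1.50. LOXL1, a relative of LOX, went the other way, from 210 to 153 CPM as group means (log2 fold change -0.46). LOXL2 and LOXL3 were not called (adjusted p = 0.166 and 0.277, edgeR).

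Of 11 collagen receptor genes, 9 were tested, and 2 were called higher (22.2%, against 16.2% of all genes) and 4 lower (44.4%, against 17.3%). ITGA1, the integrin subunit that binds type IV collagen, rose by 0.86 and the receptor kinase gene DDR1 by 0.59 on the log2 scale. ADGRG1, an adhesion receptor for type III collagen, was at 64.2, 69.2 and 65.4 CPM in the shCTRL libraries and at 26.0, 22.8 and 25.4 CPM in the shCCN3 libraries (log2 fold change -1.42, adjusted p = 1.359e-06 from edgeR). ITGA10 and ITGA11 changed by -1.14 and -0.38.

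Of 10 collagen-degrading protease genes, 7 were tested, and 1 was called higher (14.3%, against 16.2% of all genes) and 4 lower (57.1%, against 17.3%). The gelatinase gene MMP2 was at 505, 537 and 540 CPM in the shCTRL libraries and at 193, 182 and 191 CPM in the shCCN3 libraries, a log2 fold change of -1.48 (SE 0.058, adjusted p = 3.251e-07 from edgeR). The membrane-type proteases MMP16 and MMP15 changed by -0.82 and -0.57. MMP13, the 1 gene called higher, had no count in the shCTRL libraries and 0.392 CPM as the mean of the shCCN3 libraries, passed the filter through the shCCN3 libraries alone, and is named here after its values were seen.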

How the data were processed

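The authors prepared stranded poly(A) libraries (TruSeq Stranded mRNA) from the total RNA of 3 shCTRL and 3 shCCN3 #2 samples of Hs578T cells and sequenced them on a NovaSeq 6000. The deposited values are raw counts, not normalized, of 46427 genes identified by NCBI Gene ID. The submitters' processing notes name bcl2fastq 2.20.0, Trimmomatic, HISAT2 2.1.0, StringTie 2.1.3d, DESeq2 and GRCh38. The annotation and the strand setting are not given in the sources used here, so genes that overlap others carry more uncertainty.

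Normalization (TMM), CPM and fold changes used edgeR 4.0.16 (R 4.3.3). Genes passing filterByExpr by group (about 10 counts in 3 libraries) numbered 17419 and were tested with the quasi-likelihood test and Benjamini-Hochberg adjustment over all of them. SE is the absolute log2 fold change over the square root of F. Total counts per library were between 56159110 and 68393177. Within a group no library was a copy of another (chi-square per degree of freedom 6.75 to 42.5). Ratios of chains were tested with exact two-sided permutation tests over the 6 libraries. Transcript length was that of the longest protein-coding basic transcript in GENCODE 29, which 76.7% of genes tested had. Gene positions and start-site windows are from RefSeq, the windows on GRCh38.p14.

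Values per library were given for members called with at least 2-fold change and a mean of at least 1 CPM, for the 2 members with the highest level per kilobase in each class, and for their partner chains; those of COL19A1 and COL4A4 were added after seeing the values. Chain ratios are of CPM per kilobase. Of the companion lists, up to 3 genes per direction with the largest called change and a mean of at least 1 CPM were named, and CCN3. LOXL1, LOXL2, LOXL3, P3H1 and P3H3, relatives of named genes, were added after their values were seen. The members, classes and lists were chosen with earlier results of these data known. Alternatives were DESeq2 size factors, upper-quartile factors, no filter, at least 10 counts in every library, DESeq2 1.42.0, limma-voom (limma 3.58.1), the replicate block, the chromosome median, each library left out, and, added after seeing the data, a length offset. The scripts were tested on simulated data.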

Additional observations from a re-analysis of the deposited data

How the results depend on the processing

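Of the 15 collagen genes called, 14 kept their direction and an adjusted p under 0.05 in every alternative fit that gave a value. The exception was COL7A1 without shCTRL replicate 1. The comparison with the chromosome median gives no p. There all 15 kept their direction, with COL12A1 at 0.19 (0.53 as reported) and COL1A2 at 2.88 (2.45 as reported). With the replicate block, 15 members were called, 12 higher and 3 lower, and no call of a member changed, but 6 rather than 7 passed the 2-fold limit as higher. Libraries with the same number did not deviate together (correlations 0.0891, -0.0256 and -0.0657). The deviations also followed transcript length, so these correlations cannot decide whether same-numbered samples shared a batch, and the labels state none.

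With at least 10 counts in every library, 4 members rose by at least 2-fold, since fewer genes were tested. A single type VI gene, COL6A3, was called under upper-quartile factors, under that filter, in DESeq2 and with the length offset (1 gene in each). Over the fits without 1 library, the number of type VI genes called was 0 to 1, that of COL7A1 0 to 1, and that of multiplexins 1 to 2, since COL15A1 was called without shCTRL replicate 3 (log2 fold change 3.56, adjusted p = 0.0372). COL6A3 was called without shCCN3 replicate 2 or 3 (adjusted p = 0.0219 and 0.0248, edgeR). The log2 ratio of summed collagen CPM was 0.068 without COL6A3, against -0.12 with it.

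Signs turned for uncalled genes near 0. COL4A5 was at -0.0030 in limma-voom, -0.0056 with the replicate block and -0.045 with the length offset, and COL4A6, COL11A2 and COL5A3 were at -0.0020, -0.0035 and -0.036 with that offset. Relative to the chromosome median, COL11A2 was at -0.29, against 0.05 as reported, and COL4A5 and COL5A3 were at -0.020 and -0.0068. Over the fits without 1 library, the log2 fold changes ran from -0.12 to 0.12 for COL4A5, -0.14 to 0.17 for COL4A6, -0.11 to 0.17 for COL5A3, -0.012 to 0.35 for COL9A2, -0.16 to 0.26 for COL11A2 and -0.22 to 0.68 for COL24A1. The differences in log2 ratio ran from -0.17 to 0.11 for COL4A5 with COL4A6 and from -0.028 to 0.055 for COL6A1 with COL6A2. The cause of these changes was not tested. The exact permutation test used for chain ratios cannot go below 0.1 with 3 libraries per group, and members under about 0.1 CPM rest on a handful of counts.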
